A study of Mus musculus with 2 samples.

Results

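FGFR inhibition of XY gonads was examined in germ cells after 24 h of culture, as 4 libraries from gonads cultured with the FGFR inhibitor BGJ398 (Infigratinib, 500 nM, called FGFRi here) and 4 from gonads cultured with the vehicle DMSO. They were taken from the column names of the count table and are 8 of its 40 libraries. Gonads were E12.5 (embryonic day 12.5) XY gonads with the mesonephros attached, from WT embryos of ASMU Swiss by Oct4-eGFP (129svJT2 background) parents. The mesonephros was removed after culture, gonads of several embryos were pooled into each sample, and GFP-positive live germ cells were sorted for 3′ RNA sequencing with molecular identifiers, so that a count is 1 molecule. The 4 FGFRi libraries are replicates 1, 3, 4 and 5 and were sequenced in library pool 2, whereas the 4 DMSO libraries are replicates 2, 3, 4 and 5 and were sequenced in pool 1, so the treatment and the pool cannot be told apart in this comparison. The inhibitor was given to the whole gonad, and an effect on germ cells and one passed on by somatic cells cannot be told apart either. Replicates are separate pools of gonads. The p-values of genes rest on the spread between replicates within groups over all 40 libraries, and those of shares on these 8.

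FGF ligands bind receptor tyrosine kinases of the FGFR family, which signal through RAS, RAF, MEK and ERK. Active ERK induces ETS transcription factors (Etv1, Etv4 and Etv5) and the feedback inhibitors of its own pathway, among them the Dusp phosphatases and the Sprouty (Spry) and Spred proteins, and these transcripts are widely read as a measure of the pathway's output. In the fetal testis FGF9 is made by Sertoli cells and supports testis development, while XY germ cells at this stage leave the cell cycle, shut down part of their pluripotency programme and begin male differentiation.

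Total counts ranged from 1264805 to 1970069 in the FGFRi libraries (median 1587563) and from 2044852 to 3781288 in the DMSO libraries (median 2514110). The libraries carried the marks of XY germ cells: all 4 Y-linked genes listed were present in every library, with log2 fold changes from 0.05 to 0.17, and Dazl was at 1573 to 1946 CPM (counts scaled to TMM-adjusted library totals) with FGFRi and at 1280 to 1660 with DMSO. Germ cell markers took 0.486% ± 0.036 of the counts with FGFRi and 0.398% ± 0.058 with DMSO (SD, n = 4; exact permutation test, two-sided, p = 0.0571 and 0.143 adjusted over 10 shares, smallest p possible 0.0286). Sertoli cell markers took 0.0044% to 0.0072% of the counts with FGFRi and 0.0040% to 0.0191% with DMSO, the highest being DMSO replicate 2. Of the other defining markers, Insl3 (Leydig cells) and Adgre1 (macrophages) were at 0 in all 8 libraries, and Amh, Cyp11a1 and Cyp17a1 were at 0 in all 4 FGFRi libraries. With DMSO, Cyp11a1 was at 1.03 to 2.59 CPM, Amh at 0 to 1.56 and Cyp17a1 at 0 to 0.688. The endothelial gene Kdr went the other way, at 0.815 to 1.58 CPM with FGFRi and 0 to 0.518 with DMSO. Others were present in both groups, as the Sertoli cell genes Sox9 (11.4 to 13.9 CPM with FGFRi and 7.56 to 60.1 with DMSO), Aard (10.6 to 22.6 and 11.002 to 49.3) and Wt1 (6.86 to 16.6 and 6.53 to 12.4) and the Leydig cell gene Hsd3b1 (4.22 to 9.76 and 1.72 to 4.69), whose groups overlapped. The highest values of Sox9 and Aard were those of DMSO replicate 2. None of the 25 tested markers of somatic or blood cells was called, where 0.262% of all genes tested were. Not tested were all 6 macrophage, 4 of 6 endothelial and 3 of 6 Leydig cell markers, among others. Mitochondrial genes took 1.87% ± 0.18 of the counts with FGFRi and 1.53% ± 0.20 with DMSO, and ribosomal protein genes 5.78% ± 0.36 and 4.97% ± 0.45 (SD, n = 4; each exact permutation p = 0.0571, adjusted 0.143). The part of these shares in the results was not tested. In bulk samples, fewer cells that express a gene and less RNA per cell cannot be told apart.

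After 24 h of FGFR inhibition, 20 genes were lower and 20 were higher in XY germ cells. The lower genes included the ERK-induced factors Etv4 and Etv1, the phosphatases Dusp4 and Dusp6, the GDNF receptor Ret, the pro-apoptotic gene Pmaip1, the NODAL co-receptor Cripto and the metabolic kinase Pdk1. Among the higher genes were a proton pump subunit (Atp6v0a4) with the genes beside it, the transcription factors Irx3, Elf3 and Nfix, and the cholesterol transporter Abca1. A gene was called when its change exceeded 1.5-fold at a false discovery rate (FDR) under 0.05 in a fit of all 40 libraries (limma's treat), and the 40 calls were 0.262% of the 15252 genes tested (0.131% in each direction). A further count of genes at an unadjusted p under 0.05 gave 394. The number called was 14 (5 higher, 9 lower) with counts thinned to the lowest total, and 24 to 42 when 1 library was left out. In all 40 called genes the 4 FGFRi values did not overlap the 4 DMSO values, which held for 10.7% of all genes tested (4.56% with FGFRi higher and 6.18% with FGFRi lower). Higher genes rose 2.21-fold to 11.7-fold, while lower genes with counts left fell by 1.35 to 4.98 on the log2 scale. The median log2 change of all genes tested was -0.03 (0.0075 with DESeq2's size factors).

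**Figure D1:**
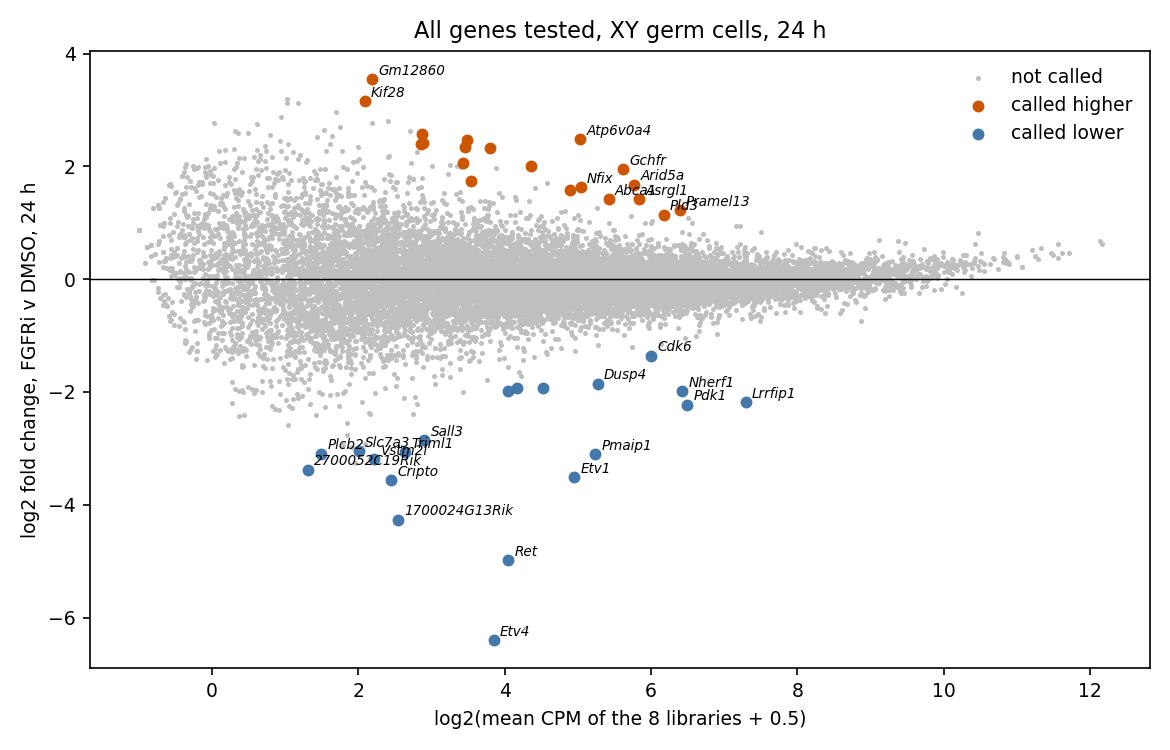
Log2 fold change of 24 h FGFRi over 24 h DMSO (vertical) against the log2 mean CPM of the 8 libraries plus 0.5 (horizontal), with 1 point for each of the 15252 genes tested and the 40 called genes in colour. Etv4 and Ret lie lowest, at -6.39 and -4.98, and Gm12860 lies highest at 3.55.

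The ETS factor Etv4 (chr11:101660568-101676197, minus strand, GRCm39) showed the largest decrease. Its level was 32.1, 17.2, 32.0 and 30.3 CPM in DMSO replicates 2, 3, 4 and 5, and no count was found in any FGFRi library. Over that group 3 counts would be 0.499 CPM, so Etv4 was at least 56.0-fold lower (FDR = 1.9e-09). Its fitted log2 change of -6.39 depends on the small count added before taking logs. The related factor Etv1 (chr12:38828851-38920483, plus strand) was at 57.5, 35.4, 79.8 and 51.9 CPM in the DMSO libraries. With FGFRi it was at 2.60, 3.26, 6.89 and 5.80 CPM in replicates 1, 3, 4 and 5, all well below the lowest DMSO value (log2 change -3.51, SE 0.41, FDR = 2.34e-06). The third member, Etv5, was not called against a 1.5-fold change, and its groups overlapped, with 59.9 to 91.2 CPM under FGFRi and 91.2 to 164 CPM under DMSO (log2 change -0.81, SE 0.14, FDR = 1).

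Of the feedback inhibitors of ERK, Dusp4 and Dusp6 were called. Dusp4, which removes phosphate from nuclear MAP kinases, had a mean of 17.3 ± 3.68 CPM with FGFRi and 58.9 ± 15.2 CPM with DMSO (SD, n = 4; log2 change -1.85, SE 0.25, FDR = 0.00293). Dusp6, the cytoplasmic ERK phosphatase, had 7.92 ± 5.18 and 27.0 ± 4.54 CPM (log2 change -1.93, SE 0.34, FDR = 0.0497). The sprouty gene Spry4 was at 0, 0, 1.72 and 0.527 CPM with FGFRi and at 7.78, 3.65, 5.16 and 8.12 CPM with DMSO, a separation that just missed the threshold (log2 change -3.25, SE 0.68, FDR = 0.0507). Of 27 ERK target and feedback genes listed, 22 were tested and 4 were called, all lower, where 0.131% of all genes tested were called lower. Against a milder question, whether a gene changed at all (edgeR's quasi-likelihood test with Benjamini-Hochberg adjustment), 10 of the 22 were lower and 0 were higher, where 3.52% of all genes tested were lower, 2.08% higher and 5.61% either. Beside those 4, the lower genes were Etv5, Spry2, Spry4, Spred1, Il17rd (a membrane inhibitor of FGF signalling) and Epha2 (an ephrin receptor), with adjusted p from 0.000587 (Etv5) to 0.0468 (Il17rd). The log2 change was below 0 in 16 of the 22 genes, with a median of -0.52 against -0.03 for all genes. The immediate-early genes Egr1, Fos and Junb had log2 changes of 0.59, 0.38 and 0.54, with an FDR of 1 each.

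**Figure D2:**
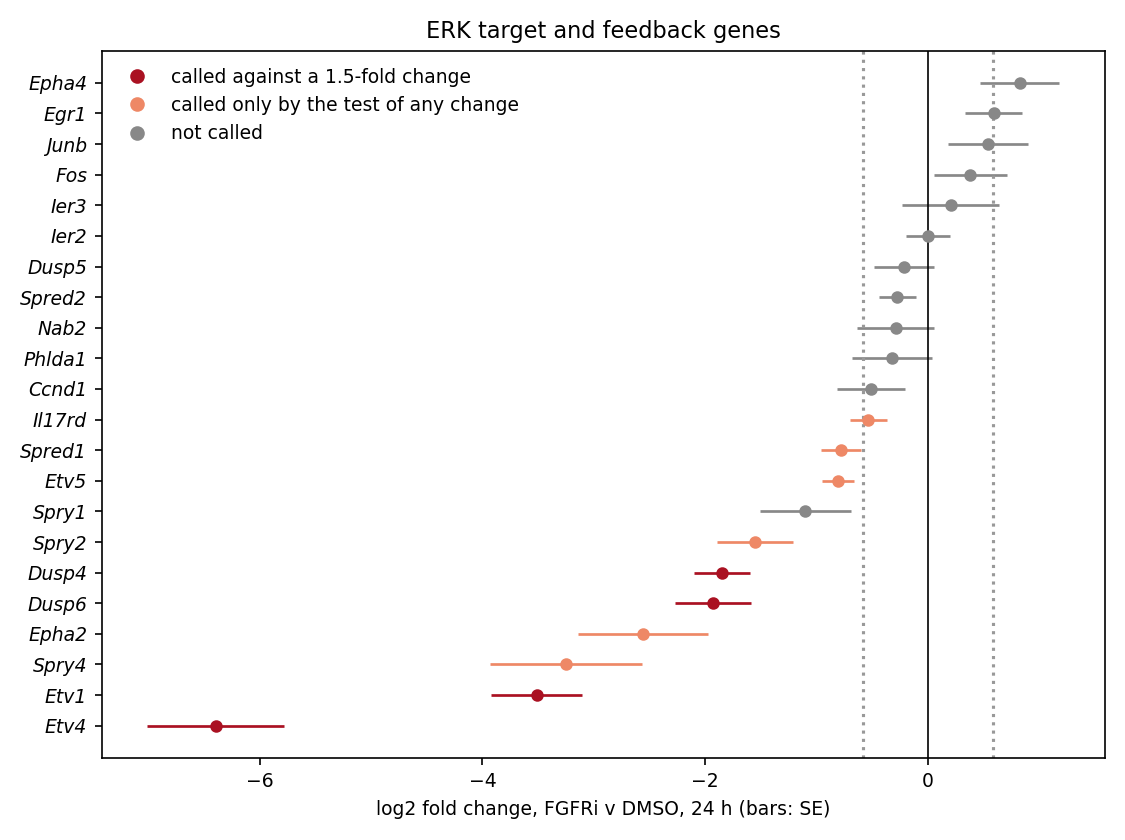
Log2 fold change of 24 h FGFRi over 24 h DMSO (horizontal, points with SE bars) of the 22 tested ERK target and feedback genes. The dotted lines mark a 1.5-fold change in each direction; the 10 coloured genes lie left of 0, from -0.53 (Il17rd) to -6.39 (Etv4).

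Upstream of these genes the pathway's own transcripts showed no call, where 0.262% of all genes tested were called and 5.61% passed the test of any change. Of 24 FGF ligands and receptors, 8 were tested, and neither test called any. Fgfr1 was at 28.8 ± 9.23 CPM with FGFRi and 33.0 ± 10.3 CPM with DMSO (log2 change -0.26, SE 0.19). Fgfr2 was at 17.9 ± 2.16 and 15.6 ± 7.21 CPM (log2 change 0.31, SE 0.27), and Fgfr3 was at 5.66 ± 3.56 and 8.02 ± 1.92 CPM (log2 change -0.68, SE 0.45). Fgf9 was scarce in these sorted cells, at 1.31 ± 0.36 and 1.06 ± 0.83 CPM. All 21 listed genes of the RAS, RAF, MEK and ERK cascade were tested and 0 were called by either test, with log2 changes from -0.78 to 1.43.

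Ret, the signalling receptor for GDNF, was lower with FGFRi. The gene (chr6:118128706-118174769, minus strand) was at 28.5, 26.0, 36.8 and 31.6 CPM in the DMSO libraries, and at 2.60, 0, 2.87 and 0 CPM with FGFRi (log2 change -4.98, SE 0.62, FDR = 2.34e-06). Uncultured XY germ cells (0 h) had 6.60 ± 3.26 CPM, so Ret was several times higher after 24 h in DMSO than at the start of culture, whereas FGFRi libraries lay below the mean at the start. The co-receptor Gfra1, which binds GDNF beside Ret, was at 1.56, 0.521, 0.344 and 1.35 CPM with DMSO and at 4.34, 0, 0.574 and 0.527 CPM with FGFRi (log2 change -0.20, SE 0.75). The FGFRi mean of 1.36 CPM rests on replicate 1 and was 0.367 ± 0.319 CPM (SD, n = 3) without it. The receptor Kit was at 81.7 ± 6.40 and 68.5 ± 25.6 CPM (log2 change 0.24, SE 0.17, FDR = 1). Of 12 tested genes on the list of GDNF and KIT receptors, Ret was the 1 call by either test. Of all genes tested, 0.262% were called and 5.61% passed the test of any change.

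Pmaip1, which encodes the pro-apoptotic protein NOXA, was lower with FGFRi. DMSO libraries had 63.8, 64.6, 64.3 and 73.3 CPM and FGFRi libraries 6.95, 4.89, 7.46 and 12.1 CPM (log2 change -3.10, SE 0.29, FDR = 1.9e-08). Among 13 tested members of the BCL2 family it was the 1 call, where 0.262% of all genes tested were called. Another pro-apoptotic member moved the other way, since Bmf was at 38.4 ± 5.55 CPM with FGFRi and 17.5 ± 5.74 CPM with DMSO, with no overlap between the groups (log2 change 1.22, SE 0.22, FDR = 0.506; adjusted p = 0.000449 by the edgeR test of any change). The pro-apoptotic gene Bik had 32.5 ± 6.68 and 21.1 ± 4.36 CPM and passed neither test (FDR = 1).

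Cripto, the membrane co-receptor for NODAL, was lower with FGFRi. In DMSO libraries it was at 9.33, 5.21, 14.8 and 7.57 CPM, and in FGFRi libraries at 0, 2.44, 0 and 0.527 CPM (chr9:110768655-110775292, minus strand; log2 change -3.57, SE 0.64, FDR = 0.00816). By the test of any change, 3 of the 16 tested NODAL pathway genes were higher and Cripto was the 1 lower gene. Over all genes tested, 2.08% were higher and 3.52% lower. Lefty1, a NODAL target and inhibitor, was at 188, 229, 178 and 188 CPM with FGFRi and at 101, 60.9, 126 and 109.6 CPM with DMSO (log2 change 0.95, SE 0.14, adjusted p = 0.00011 by the edgeR test). Foxh1, the DNA-binding partner of SMADs, had 11.1 ± 4.10 and 4.28 ± 1.51 CPM (adjusted p = 0.0365). Nodal itself was at 11.1 ± 2.87 and 6.27 ± 3.38 CPM and passed neither test (FDR = 1, adjusted p = 0.261 by the edgeR test). None of these 3 was called against a 1.5-fold change.

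The remaining genes among the 10 with the largest decreases were low in both groups. 1700024G13Rik (chr14:32098025-32110348, minus strand) was at 15.0, 4.17, 10.3 and 12.2 CPM with DMSO and at 0, 0, 0.574 and 0.527 CPM with FGFRi, where 2 counts remained (32.2-fold lower, 95% counting interval 8.72 to 269; log2 change -4.26, SE 0.69, FDR = 0.00119). 2700052C19Rik (chr7:3386061-3386395, plus strand), an unverified transcript that overlaps Cacng7 on the same strand and may share its reads, was at 3.11, 4.17, 5.85 and 2.71 CPM with DMSO and had no count with FGFRi. It was therefore at least 7.94-fold lower on the floor of 3 counts over the group (FDR = 0.00815). The phospholipase gene Plcb2 (chr2:118537979-118559111, minus strand) was at 4.67, 3.65, 3.44 and 5.14 CPM with DMSO, and at 1.63 CPM in FGFRi replicate 3 and 0 in the other FGFRi libraries (2 counts, 12.95-fold lower, 95% counting interval 3.38 to 110.2; log2 change -3.09, SE 0.61, FDR = 0.0315). Such intervals cover counting error only.

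Vstm2l and Triml1 completed that group. Vstm2l (chr2:157756523-157786639, plus strand) was at 4.67, 10.4, 8.60 and 6.22 CPM with DMSO and at 1.74, 1.63, 0 and 0 CPM with FGFRi (log2 change -3.19, SE 0.59, FDR = 0.0162). Triml1 (chr8:43582844-43594567, minus strand), of the tripartite-motif family, was at 12.4, 8.86, 6.19 and 10.6 CPM with DMSO. Under FGFRi it was at 0, 5.70, 0 and 2.11 CPM, so that replicate 3 lay just below the lowest DMSO library (log2 change -3.06, SE 0.56, FDR = 0.0162).

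**Figure D3:**
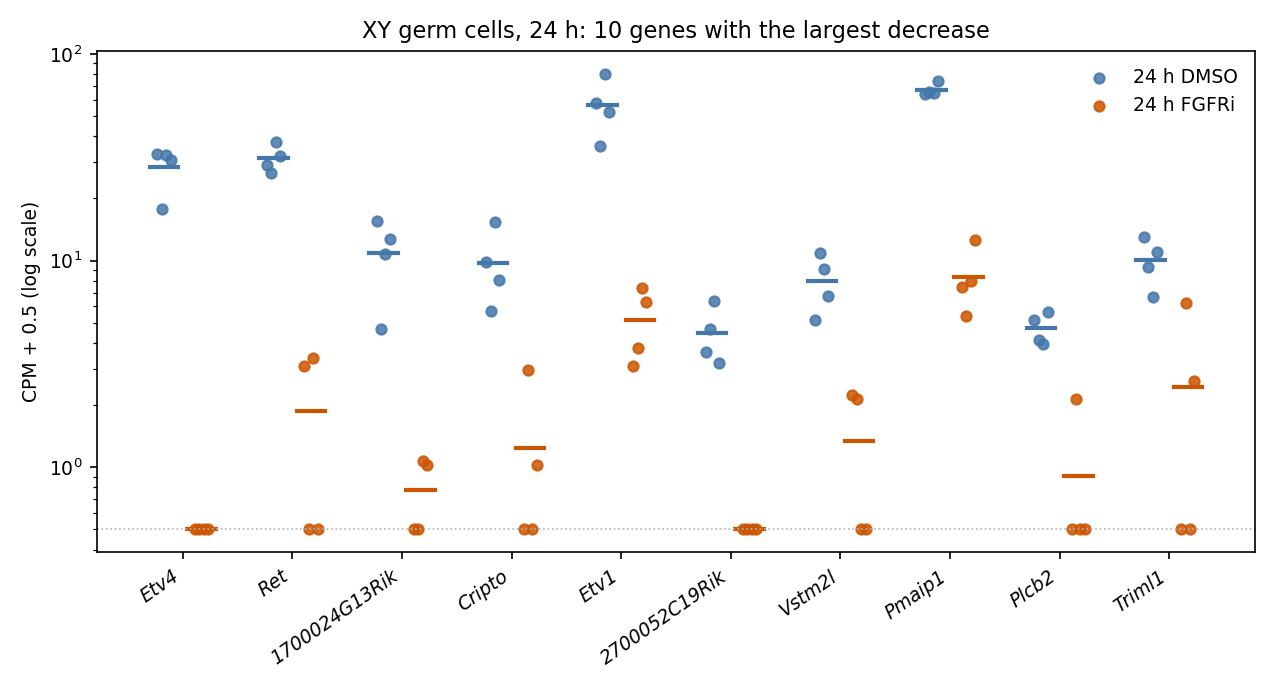
CPM plus 0.5 (vertical, log scale) of the 10 genes with the largest decreases in each of the 4 DMSO and 4 FGFRi libraries, with bars at the group means and a dotted line at 0 CPM. In each gene all FGFRi points lie below all DMSO points, and Etv4 and 2700052C19Rik sit on the dotted line in all 4 FGFRi libraries.

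Among the other 10 lower genes, Pdk1, Lrrfip1 and Nherf1 had the highest DMSO levels. Pdk1, a kinase that holds back the entry of pyruvate into the citric acid cycle, was at 31.9 ± 7.35 CPM with FGFRi and 147 ± 5.06 CPM with DMSO (SD, n = 4; log2 change -2.22, SE 0.19, FDR = 1.9e-08). Lrrfip1 was at 57.3 ± 0.94 and 256 ± 39.8 CPM (log2 change -2.19, SE 0.15, FDR = 2.8e-11), the smallest FDR of the comparison. Nherf1, a scaffold that ties membrane proteins to the cortex, was at 34.7 ± 9.61 and 137 ± 22.4 CPM (log2 change -1.99, SE 0.18, FDR = 4.55e-07). Cdk6, the G1 cyclin-dependent kinase, fell least, from 90.6 ± 9.41 to 36.5 ± 8.46 CPM (log2 change -1.35, SE 0.19, FDR = 0.031). Lower too were the zinc-finger gene Sall3 (1.98 ± 2.07 and 11.97 ± 3.96 CPM) and the reelin adaptor Dab1 (6.86 ± 5.03 and 25.2 ± 2.82 CPM). The last were the liprin Ppfibp2 (8.81 ± 2.91 and 36.2 ± 4.64 CPM) and the amino acid transporter Slc7a3 (0.876 ± 1.24 and 6.17 ± 2.74 CPM).

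The calls of Etv4, Ret, 1700024G13Rik, Etv1, Pmaip1, Pdk1, Lrrfip1 and Nherf1 held in every alternative run for them, including the omission of each of the 8 libraries. A replicate block ended the calls of Dusp4 (FDR = 0.292), Cdk6 (0.0756), Ppfibp2, Triml1, Sall3, Dusp6 and Dab1. DESeq2 ended those of Plcb2 (0.547), Slc7a3 (0.737) and Triml1 (0.391), among others, and thinned counts that of Cripto (0.143), among others. When 1 library was left out, the highest FDR was 0.115 for Cripto (lost without FGFRi replicate 1 or 4), 0.0707 for 2700052C19Rik and 0.168 for Vstm2l (both lost without FGFRi 4 or 5), 0.334 for Triml1 (FGFRi 1 or 4), 0.056 for Dusp4 (DMSO 5), 0.122 for Ppfibp2 (FGFRi 1, 3 or 4), 0.216 for Plcb2 (DMSO 5, FGFRi 1, 4 or 5), 0.262 for Dab1 (DMSO 5, FGFRi 1, 3 or 5), 0.384 for Cdk6 (DMSO 3 or 5, FGFRi 1, 4 or 5), 0.393 for Dusp6, 0.482 for Sall3 and 0.496 for Slc7a3 (each DMSO 4 or 5, FGFRi 1, 3 or 4).

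Of the 20 higher genes, 3 lie side by side on chromosome 6. Atp6v0a4, a membrane subunit of the vacuolar proton pump (chr6:38025418-38101521, minus strand), was at 8.30, 13.02, 8.25 and 10.3 CPM with DMSO and at 43.4, 55.4, 62.0 and 57.0 CPM with FGFRi (log2 change 2.48, SE 0.27, FDR = 2.34e-06). Svopl, a transporter-like gene 1486 bases away on the same strand (chr6:37960674-38023931), rose from 2.07, 6.25, 2.75 and 5.14 CPM to 12.2, 16.3, 20.1 and 17.4 CPM (log2 change 2.06, SE 0.38, FDR = 0.0497). Tmem213, on the opposite strand within the span of Atp6v0a4 (chr6:38086190-38092744), was at 3.11, 1.56, 1.72 and 1.89 CPM with DMSO and at 11.3, 12.2, 11.5 and 10.6 CPM with FGFRi (log2 change 2.40, SE 0.39, FDR = 0.00816). In each of the 3 genes every FGFRi library lay above every DMSO library. The genes to either side were not called, with log2 changes of -0.02 (SE 0.15) for Trim24 and of -0.43 (SE 0.27) for D630045J12Rik, which overlaps Atp6v0a4 on the same strand. All 3 genes were nearly silent at 0 h, at mean levels of 0.439 CPM (Atp6v0a4), 0.219 CPM (Svopl) and 0.196 CPM (Tmem213).

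The largest increase by fold was that of Gm12860, a long non-coding RNA (chr4:120445854-120495453, plus strand). It was at 0, 1.04, 0 and 1.35 CPM with DMSO and at 8.68, 5.70, 5.17 and 10.6 CPM with FGFRi (log2 change 3.55, SE 0.60, FDR = 0.0031). The kinesin gene Kif28 (chr1:179522862-179572836, minus strand), which overlaps Ahctf1 on the same strand and may share its reads, was at 0, 1.56, 0.688 and 0.812 CPM with DMSO and at 6.08, 9.78, 7.46 and 3.69 CPM with FGFRi (log2 change 3.15, SE 0.62, FDR = 0.0315). Kif1a, a kinesin motor for vesicle transport (chr1:92942641-93029752, minus strand), rose from 6.22, 2.08, 3.44 and 2.71 CPM to 16.5, 20.4, 17.8 and 14.8 CPM (log2 change 2.34, SE 0.33, FDR = 0.00119).

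The homeobox gene Irx3 (chr8:92525153-92528695, minus strand) was at 1.56, 0, 3.09 and 2.98 CPM with DMSO and at 14.8, 9.78, 12.6 and 10.0 CPM with FGFRi (log2 change 2.57, SE 0.51, FDR = 0.0497). Elf3, an epithelial ETS factor (chr1:135181306-135188999, minus strand), was at 4.67, 2.60, 3.44 and 5.14 CPM and at 19.1, 30.1, 17.2 and 24.8 CPM (log2 change 2.33, SE 0.41, FDR = 0.0255). Neither pair of groups overlapped. Nfix, of the nuclear factor I family, was at 48.8 ± 10.2 CPM with FGFRi and 15.96 ± 4.53 CPM with DMSO (log2 change 1.64, SE 0.20, FDR = 0.00167), and Arid5a, a DNA- and RNA-binding protein, was at 69.6 to 94.5 CPM (mean 82.9) and 18.8 to 32.7 CPM (mean 25.3; log2 change 1.68, SE 0.16, FDR = 3.04e-06).

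The last of the 10 genes with the largest increases were Ambp and S100z. Ambp, the precursor of a secreted lipocalin and of a protease inhibitor (chr4:63061512-63073036, minus strand), was at 2.59, 3.13, 3.09 and 3.25 CPM with DMSO and at 10.4, 21.2, 13.8 and 28.5 CPM with FGFRi (log2 change 2.48, SE 0.37, FDR = 0.00195). S100z, a calcium-binding protein (chr13:95611904-95615832, minus strand), was at 2.07, 0.521, 2.06 and 2.98 CPM and at 7.81, 13.8, 14.3 and 11.6 CPM (log2 change 2.42, SE 0.43, FDR = 0.0207). FGFRi values of Ambp ranged widely, but its lowest was above the highest DMSO value. Higher at greater levels were Gchfr, which regulates the enzyme that starts tetrahydrobiopterin synthesis (77.1 ± 8.78 CPM with FGFRi and 20.1 ± 5.82 CPM with DMSO, FDR = 2.32e-06), Abca1 (62.3 ± 9.96 and 22.3 ± 4.52 CPM, FDR = 0.00432) and the collagen receptor Ddr2 (16.7 ± 1.48 and 5.65 ± 1.95 CPM, FDR = 0.0497). The cilium gene Cfap52 had 43.0 ± 8.29 and 15.2 ± 6.62 CPM, and the asparaginase-like gene Asrgl1 83.6 ± 6.42 and 30.2 ± 6.45 CPM. The lysosomal nuclease gene Pld3 changed least, with 97.5 ± 6.06 and 46.1 ± 6.82 CPM (log2 change 1.14, SE 0.14). Klk1 (32.1 ± 6.41 and 7.999 ± 1.79 CPM) and Pramel13 (116 ± 4.83 and 50.8 ± 11.5 CPM) belong to multigene families. Their counts may hold reads of related genes, which was not tested.

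**Figure D4:**
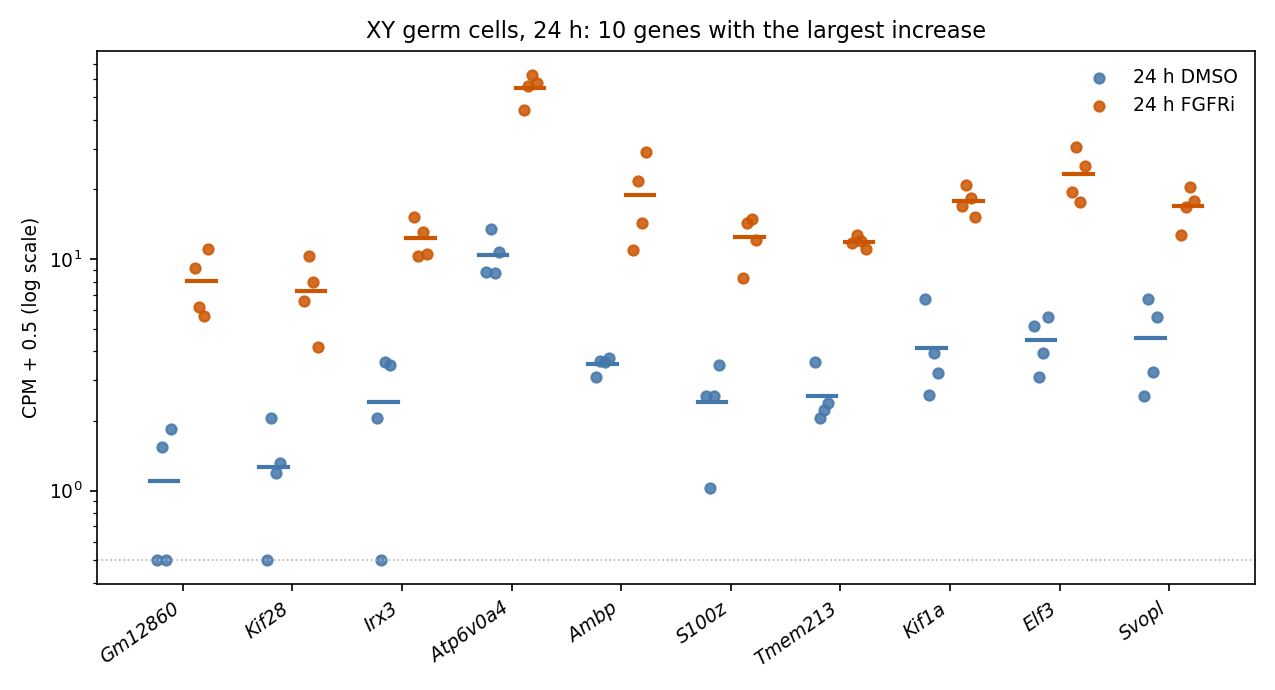
CPM plus 0.5 (vertical, log scale) of the 10 genes with the largest increases in each of the 4 DMSO and 4 FGFRi libraries, with bars at the group means and a dotted line at 0 CPM. All FGFRi points lie above all DMSO points of the same gene; Atp6v0a4 has the highest FGFRi values, 43.4 to 62.0 CPM.

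The calls of Arid5a, Gchfr and Atp6v0a4 held in every alternative, and those of Abca1, Nfix, Klk1, Ambp and Gm12860 held without each library. In other alternatives Abca1 lost its call with no filter on low counts (FDR = 0.0782), with thinned counts (0.143) and with a replicate block (0.0545), Nfix with thinned counts and with the block, Klk1 and Ambp with no filter and with thinned counts (each FDR at most 0.0732), and Gm12860 with DESeq2 (0.0697). Leaving out 1 library raised the FDR to at most 0.131 for Kif1a (lost without DMSO 5), 0.194 for Tmem213 (DMSO 4 or 5), 0.125 for Pramel13 (DMSO 4 or FGFRi 4), 0.0986 for Asrgl1 (DMSO 2 or 4, FGFRi 3 or 5), 0.0836 for S100z (DMSO 3, 4 or 5, FGFRi 3 or 4), 0.157 for Elf3 (DMSO 3, 4 or 5, FGFRi 3 or 5), 0.564 for Cfap52 (DMSO 4 or 5, FGFRi 3 or 4) and 0.119 for Kif28 (DMSO 2, 4 or 5, FGFRi 1, 3 or 4). Svopl (at most 0.213) lost its call on the omission of each library except FGFRi 1, Pld3 (0.372) of each except DMSO 3, Ddr2 (1) of each except DMSO 2, and Irx3 (0.207) of each of the 8. Thinned counts also ended the calls of Kif1a (FDR = 0.361), Elf3 (0.285) and Irx3 (0.697), among others. So did the replicate block for Pramel13 (0.26) and DESeq2 for Kif28 (0.271), among others. Counts carried over by shared sample indexes, once taken out, ended the calls of Ddr2 (FDR = 0.0714) and Svopl (FDR = 0.0792), and 2700052C19Rik dropped out of the genes tested, so that 37 of the 40 calls were kept. The calls of Ddr2, Pld3, Svopl, Irx3 and Kif28, and of the lower genes Dusp6, Slc7a3 and Cdk6, were lost in at least as many alternatives as they held in.

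The 24 h FGFRi libraries can be set beside the 72 h DMSO libraries, which are in the same pool 2 but differ in culture time. For 17 of the 20 higher genes all 72 h DMSO libraries lay below all 24 h FGFRi libraries, Pld3 lay above and 2 overlapped. Over all genes tested, the 72 h DMSO libraries lay below for 24.0% and above for 27.1%. The 72 h FGFRi libraries, which had the inhibitor, also lay below for 17 of the 20 higher genes and above for Abca1 and Pld3 (25.5% and 30.4% of all genes). For 11 of the 20 lower genes all 72 h DMSO libraries lay above all 24 h FGFRi libraries, among them Etv4, Ret, Pmaip1, Pdk1 and Nherf1, while 1 gene lay below and 8 overlapped. Those of 72 h FGFRi lay above for 7 of the 20 and below for 3, and 10 overlapped. Etv1, Dusp4, Dusp6 and Lrrfip1 were low at 72 h in DMSO as well, at 2.67, 2.19, 7.39 and 55.6 CPM. Over the 20 higher genes the median of the mean levels was 1.80 CPM at 0 h, 6.83 in 24 h DMSO, 27.5 in 24 h FGFRi and 4.86 in 72 h DMSO. Over the 20 lower genes it was 39.7, 27.4, 3.31 and 8.37 CPM in the same order. The counts and medians describe genes chosen for their 24 h values, which fixes part of where the other groups lie, and nothing is read from them beside the shares of all genes.

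**Figure D5:**
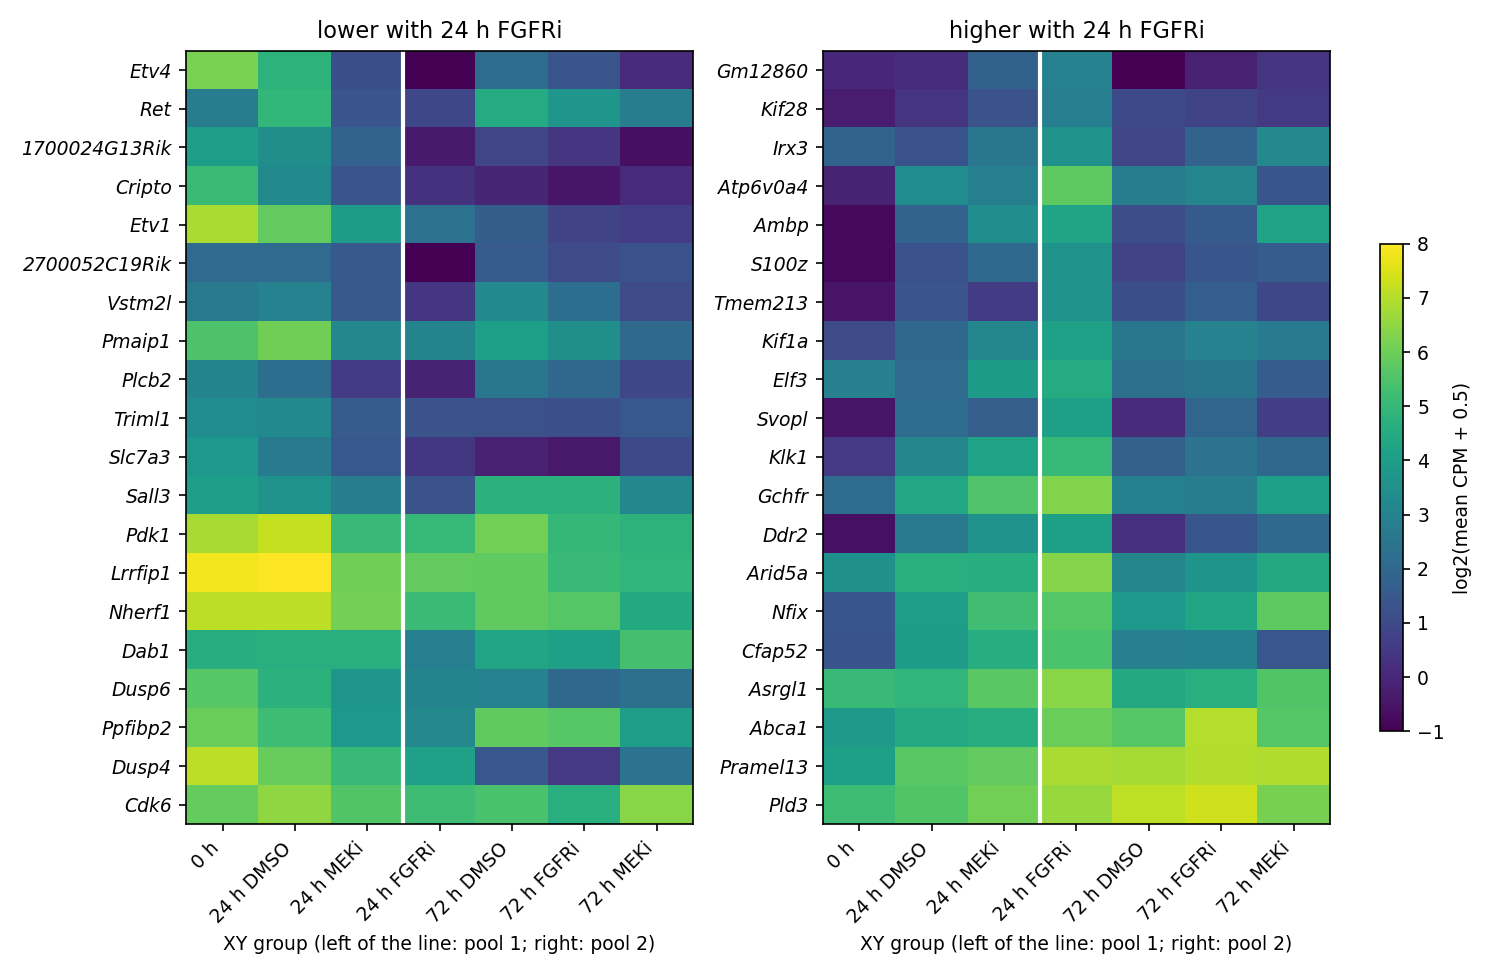
Colour shows log2(mean CPM + 0.5) of the 20 lower (left) and 20 higher (right) genes in the 7 XY groups, with a white line between the groups of pool 1 and those of pool 2. Within pool 2, the 24 h FGFRi column is darker than the 72 h DMSO column for Etv4, Ret and Pmaip1, and for Atp6v0a4 it is the brightest of the 7, at 54.4 CPM.

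Male germline genes showed 0 calls against a 1.5-fold change among 22 tested, where 0.262% of all genes tested were called. Their median log2 change was -0.01. Nanos2, the RNA-binding regulator of the male germline, was at 20.8, 22.8, 19.5 and 15.3 CPM with FGFRi and at 11.9, 37.5, 13.8 and 24.1 CPM with DMSO (log2 change -0.03, SE 0.27, FDR = 1; 0.013 with size factors). The FGFRi values lay within the range of the DMSO values. By the test of any change 2 were higher: Dnmt3l, the cofactor of de novo DNA methylation, at 5.47 ± 2.05 and 1.51 ± 1.54 CPM (adjusted p = 0.0457), and the methyltransferase Dnmt3a at 193 ± 16.3 and 139 ± 23.1 CPM (adjusted p = 0.00551). In both genes the groups overlapped. Over all genes tested, the test of any change gave 2.08% higher and 3.52% lower.

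Of 25 tested female germline and meiosis genes, 1 was called, the Irx3 described above, where 0.262% of all genes tested were called. That call was lost on the omission of each of the 8 libraries (FDR at most 0.207). Stra8, the gatekeeper of meiotic entry, was at 122, 103, 111 and 100.2 CPM with FGFRi and at 94.4, 119.8, 106 and 106 CPM with DMSO (log2 change 0.05, SE 0.20, FDR = 1). Its groups overlapped. The test of any change added Spo11, the maker of meiotic DNA breaks (8.61 ± 6.19 and 3.38 ± 1.97 CPM, adjusted p = 0.0473, with FGFRi replicate 4 at 17.8 CPM and the others at 4.34 to 6.52), and the BMP target Id3 in the lower direction (20.5 ± 8.15 and 39.4 ± 8.01 CPM, adjusted p = 0.0121).

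Pluripotency genes had 0 calls among 20 tested, but by the test of any change 4 were higher and 2 were lower, with a median log2 change of 0.17. Over all genes tested 0.262% were called, and by the test of any change 2.08% were higher and 3.52% lower. Nanog was at 106, 116, 102 and 122 CPM with FGFRi and at 53.9, 42.2, 66.0 and 73.3 CPM with DMSO (log2 change 0.84, SE 0.15, adjusted p = 0.00142 by the edgeR test). Tfap2c, a germ cell specifier, was at 57.0 ± 14.8 and 27.8 ± 7.04 CPM (adjusted p = 0.00141). Dppa5a, which has related copies in the genome, had 1795 ± 305 and 1026 ± 131 CPM (adjusted p = 0.00435), and Prdm1 61.5 ± 5.45 and 39.7 ± 16.1 CPM (adjusted p = 0.0471). FGFRi and DMSO values did not overlap for Nanog, Tfap2c and Dppa5a, which held for 4.56% of all genes tested with FGFRi higher. In the other direction Utf1, a chromatin factor of pluripotent cells, was at 407, 287, 403 and 292 CPM with FGFRi and at 655, 691, 461 and 544 CPM with DMSO (log2 change -0.75, SE 0.12, adjusted p = 0.000132). Lin28a, the let-7 antagonist, was at 29.9 ± 8.78 and 57.5 ± 10.0 CPM (adjusted p = 0.00134). Pou5f1, whose promoter drives the GFP used for sorting, was at 119.8 ± 7.18 and 94.9 ± 11.7 CPM and passed neither test (log2 change 0.33, SE 0.12, adjusted p = 0.143 by the edgeR test).

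Of 24 tested cell cycle genes Cdk6 was called, the test of any change gave 5 lower and 1 higher, and the median log2 change was -0.17. Of all genes tested, 0.131% were called lower, and the test of any change gave 3.52% lower and 2.08% higher. With Cdk6, the lower genes were the replication helicase subunits Mcm5 (125 ± 13.4 CPM with FGFRi and 204 ± 47.6 CPM with DMSO, adjusted p = 0.000297) and Mcm2 (228 ± 28.9 and 296 ± 27.1 CPM, adjusted p = 0.0229), the sliding clamp Pcna (183 ± 18.9 and 271 ± 58.8 CPM, adjusted p = 0.00113) and the S-phase factor E2f1 (34.5 ± 2.65 and 54.3 ± 4.82 CPM, adjusted p = 0.0128). The higher gene was Cdkn1c, which encodes the cell cycle inhibitor p57, at 158, 114, 142 and 84.9 CPM with FGFRi and at 75.7, 90.1, 63.3 and 72.8 CPM with DMSO (adjusted p = 0.00139). FGFRi replicate 5 of Cdkn1c lay inside the DMSO range.

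Of 14 tested cholesterol and LXR genes Abca1 was called, and by the test of any change 2 were higher and 5 lower, with a median log2 change of -0.44. Over all genes tested 0.262% were called, and by the test of any change 2.08% were higher and 3.52% lower. Both higher genes, Abca1 and Mylip (a ubiquitin ligase), are known targets of the sterol sensor LXR. Mylip was at 26.0, 34.2, 40.2 and 54.3 CPM with FGFRi and at 12.96, 7.81, 13.1 and 24.9 CPM with DMSO (log2 change 1.19, SE 0.23, adjusted p = 0.000197). The lower genes included members of sterol synthesis and its control. Insig1, which retains the sterol-sensing complex in the endoplasmic reticulum, was at 80.7 ± 10.1 and 157 ± 18.6 CPM (adjusted p = 0.000932). Enzymes among them were Cyp51 (56.8 ± 5.61 and 86.8 ± 9.94 CPM, adjusted p = 0.00424), Lss (44.2 ± 4.96 and 72.1 ± 15.3 CPM, adjusted p = 0.00748) and Hmgcs1 (191 ± 7.68 and 259 ± 21.2 CPM, adjusted p = 0.0247). In each of these 4 genes the groups did not overlap, which held for 6.18% of all genes tested with FGFRi lower.

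Glycolysis and hypoxia genes had 1 call, Pdk1, among 22 tested, and the test of any change gave 3 lower and 1 higher. Of all genes tested, 0.262% were called, and the test of any change gave 3.52% lower and 2.08% higher. Beside Pdk1 the lower genes were the glycolytic enzyme Eno1 (161 ± 5.65 and 257 ± 41.6 CPM, adjusted p = 4.75e-05) and Pdk3, a relative of Pdk1 (79.3 ± 7.81 and 115 ± 14.0 CPM, adjusted p = 0.00789). Hk1, a hexokinase, was higher at 25.7 ± 4.46 and 13.9 ± 8.03 CPM (adjusted p = 0.0192), although DMSO replicate 4 lay within the FGFRi range at 25.8 CPM. Among 8 tested WNT targets, 0 were called and Tcf7 was lower by the test of any change (32.0 ± 10.96 and 59.8 ± 7.24 CPM, adjusted p = 0.000866).

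The effect of FGFR inhibition at 72 h was compared with that at 24 h as an interaction in the same fit, where the 72 h FGFRi and DMSO libraries are both in pool 2. Since the 24 h effect lies across the pools, a difference between the times and one between the pools cannot be told apart. It was called for 5 genes, 0.0328% of those tested. Etv4, Ret, Pmaip1 and Nherf1 fell less at 72 h than at 24 h. Ret was at 9.05 to 15.5 CPM with FGFRi and at 20.6 to 24.0 CPM with DMSO at 72 h, without overlap, a log2 change of -0.83 (SE 0.23) against -4.98 at 24 h (difference 4.15, SE 0.66, FDR = 0.00386). Pmaip1 had 8.19 to 12.4 and 12.5 to 24.6 CPM at 72 h (difference 2.61, SE 0.37, FDR = 0.00386). Its mean in DMSO fell from 66.5 CPM at 24 h to 16.5 at 72 h, while with FGFRi it was 7.86 and 10.75. Nherf1 had 39.4 to 54.5 and 47.4 to 66.6 CPM, which overlapped (difference 1.80, SE 0.24, FDR = 0.0085). Its mean in DMSO fell from 137 to 55.6 CPM between these times, while with FGFRi it was 34.7 and 48.7. Etv4 had fallen by 72 h to 3.99 CPM in DMSO and 2.10 CPM with FGFRi, so its fitted difference of 5.20 (SE 0.79, FDR = 0.00201) sets a small change against the absence of counts at 24 h. Sparcl1, a secreted matrix protein that was not called at either time, had effects of opposite sign. It was at 12.1 ± 4.56 CPM with FGFRi and 3.003 ± 0.853 CPM with DMSO at 24 h, and at 4.86 ± 0.50 and 13.7 ± 5.69 CPM at 72 h (difference -3.47, SE 0.57, FDR = 0.0085). When 1 library was left out, Ret lost its call without 24 h FGFRi 5 (FDR = 0.0745). Nherf1 lost it without 24 h FGFRi 4 or 5 or without replicate 2 of either 72 h group (at most 0.0877), and Sparcl1 without 24 h DMSO 4 or 5 or either of those 72 h libraries (at most 0.271). With thinned counts Pmaip1 (FDR = 0.115) and Sparcl1 (0.109) lost theirs, and Sparcl1 also with no filter (0.0609).

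Within pool 2, FGFRi against DMSO at 72 h called 1 gene, Abca1 (0.00656% of those tested; 89 genes had an unadjusted p under 0.05, and 24 were called by the edgeR test of any change). Its level at 72 h was 105.6 to 151 CPM with FGFRi (mean 129) and 49.3 to 53.7 CPM with DMSO (mean 50.7), without overlap. The log2 change was 1.39 (SE 0.12, FDR = 0.000276), beside 1.42 at 24 h, with a difference of -0.03 (SE 0.21, FDR = 1). That call held in every alternative run for it, with an FDR of at most 0.0113 when 1 library was left out. The other 39 genes called at 24 h were not called at 72 h, which does not show that their change was gone. Pdk1 was at 23.2 to 35.2 CPM with FGFRi and at 58.9 to 79.9 CPM with DMSO, without overlap (log2 change -1.11, SE 0.16). The log2 change was 2.07 (SE 0.65) for Svopl and 1.53 (SE 0.56) for Ddr2. Kif28 (-0.20, SE 0.58), Gchfr (-0.14, SE 0.35) and Cfap52 (-0.03, SE 0.33) had the opposite sign to that at 24 h.

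MEK1/2 lies below FGFR in the cascade, and its inhibitor PD0325901 (called MEKi, 500 nM) was given to parallel XY cultures for 24 h. Those 4 libraries are in pool 1, and both inhibitors were compared with the same 4 DMSO libraries. Several genes that were lower with FGFRi had similar means with MEKi: 31.9 CPM with FGFRi and 32.8 with MEKi for Pdk1, 57.3 and 66.4 for Lrrfip1, 7.86 and 8.51 for Pmaip1, 1.37 and 2.10 for Ret. Etv1 was at 4.64 CPM with FGFRi and 15.1 with MEKi. Dab1 stayed at 24.8 CPM with MEKi, beside 6.86 with FGFRi and 25.2 with DMSO. The direct comparison of MEKi with FGFRi, which again lies across the pools, called 16 genes (0.105% of those tested, 0.0918% with MEKi lower). Among them were 5 of the 20 genes higher with FGFRi, all lower with MEKi, and 0 of the 20 lower ones. Every other gene of the 20 higher ones also had a positive log2 change with MEKi over DMSO, but none was called. These changes ran from 0.19 (SE 0.15, Pramel13) to 2.34 (SE 0.63, Gm12860). Nfix, for one, was at 37.5 CPM with MEKi, beside 48.8 with FGFRi and 15.96 with DMSO.

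The 5 genes were the chromosome 6 neighbours, Arid5a and Abca1, and in each every MEKi library lay below every FGFRi library, which their choice from these libraries largely fixes and from which nothing is read (4.48% of all genes tested lay so, and 5.26% had every MEKi library above). Atp6v0a4 was at 1.59 to 10.6 CPM with MEKi (mean 6.86), a log2 difference from FGFRi of -3.20 (SE 0.35, FDR = 2.45e-06). Tmem213 was at 0.531 to 1.59 CPM (difference -3.27, SE 0.47, FDR = 0.000792), and Svopl at 1.06 to 3.83 CPM (difference -2.51, SE 0.42, FDR = 0.0165). Arid5a was at 21.4 to 26.5 CPM (difference -1.77, SE 0.16, FDR = 4.31e-06) and Abca1 at 18.1 to 27.0 CPM (difference -1.43, SE 0.18, FDR = 0.0103). Against DMSO, MEKi gave these 5 genes log2 changes from -0.86 (SE 0.54, Tmem213) to -0.01 (SE 0.20, Abca1) and an FDR of 1 for each. Without 1 library Svopl lost its call in 6 cases (MEKi 1, 2, 4 or 6, FGFRi 4 or 5, FDR at most 0.143) and Abca1 in 4 (MEKi 1 or 6, FGFRi 3 or 5, at most 0.15), while Atp6v0a4, Arid5a and Tmem213 kept theirs. Abca1 also lost it with no filter (0.0777), and Svopl with DESeq2 (0.0806) and with thinned counts (0.088).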

How the data were processed

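GEO's table, deposited by the authors, held raw counts per gene for 40 germ cell libraries in 2 pools. The authors demultiplexed reads by sample index, aligned them to GRCm39 with Rsubread and counted molecular identifiers per exon, strand-aware, with scPipe. Counts for each library were used as deposited. Genes were filtered with edgeR's filterByExpr (minimum count 10, minimum total 15), scaled by TMM (edgeR 4.0.16) and fitted with 1 mean per group by voomWithQualityWeights in limma 3.58.1 (R 4.3.3; 30 residual degrees of freedom), then tested with treat against a 1.5-fold change at an FDR of 0.05. The pool could not be a term. CPM are on TMM-adjusted totals and are not scaled to gene length. Coordinates and biotypes are from GENCODE M39, matched by gene identifier for 40391 of 42422 genes. Shares of counts were compared by exact permutation of the 8 libraries (SciPy 1.17.1). DESeq2 1.42.0 served as an alternative. The scripts were tested on simulated data.

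Genes named were all called genes, members of the gene lists and Y-linked genes, with values in every library for the 10 largest changes in each direction; the comparisons with 72 h and with MEKi named the genes called here, and all genes where 5 or fewer were called. The members and lists were chosen with earlier results of these data known. The 4 DMSO libraries share sample indexes with 72 h MEKi libraries of the other pool. Y-linked counts in XX libraries with shared indexes put the carry-over near 3.25% of the partner's counts, and taking it out is among the alternatives, which also left out each library, thinned counts to the lowest total and changed the scaling, filter, weights, samples and test. The 72 h effect and its alternatives were added after the data were seen. Some listed genes are not reported here.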

Additional observations from a re-analysis of the deposited data

Results flagged for a closer look

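In groups of 4 libraries, 15 of 208 groups of values had 1 library apart from the other 3 by Dixon's criterion, which chance gives in about 1 group in 20. Among called genes these were DMSO replicate 3 for Etv4 (17.2 CPM, others 30.3 to 32.1) and Pld3 (56.3, others 42.0 to 44.0), DMSO replicate 4 for Nherf1 (170.2, others 123 to 129) and Klk1 (10.7, others 6.74 to 7.30), and DMSO replicate 5 for Pmaip1 (73.3, others 63.8 to 64.6). In the FGFRi group they were replicate 3 for Plcb2 (1.63 CPM, others 0) and replicate 4 for Dab1 (14.3, others 3.47 to 4.89).

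Among list genes, DMSO replicate 4 stood apart for Spry2 (17.2 CPM, others 24.5 to 25.9), DMSO replicate 3 for Spocd1 (10.4, others 0.518 to 1.62) and DMSO replicate 2 for Id3 (51.3, others 34.4 to 36.4). FGFRi replicate 4 stood apart for Spo11 (17.8 CPM, others 4.34 to 6.52) and Lin28a (43.0, others 24.3 to 26.4), FGFRi replicate 1 for Gfra1 (4.34, others 0 to 0.574) and FGFRi replicate 3 for Kit (91.2, others 78.1 to 78.6). Sertoli cell markers took 0.0191% of the counts in DMSO replicate 2, and 0.0040% to 0.0061% in the others.

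The effect of FGFRi differed between 72 h and 24 h, by a test of the difference, for Etv4 (5.20 on the log2 scale), Ret (4.15), Pmaip1 (2.61), Nherf1 (1.80) and Sparcl1 (-3.47). For the first 4 the decrease was smaller at 72 h, and for Sparcl1 the sign turned. The time and the pool cannot be told apart in this test.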

How the results depend on the processing

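The count of called genes was 40 as reported. It was 41 with size factors, 49 with no filter on low counts, 29 with DESeq2 (13 higher), 35 without library weights, 40 with the counts of the shared sample index taken out, 36 with only the 8 libraries (12 lower) and 32 with only the 12 XY libraries of 24 h (13 lower). It rose to 65 with edgeR's glmTreat (36 lower), to 855 (318 higher, 537 lower) when edgeR tested a change of any size, and to 630 (304 higher, 326 lower) when limma did so and the observed change was over 1.5-fold. Thinned to the lowest total, which left 13211 genes to test, it was 14 (5 higher, 9 lower), with 13 of the 40 among them. Leaving out 1 library gave 24 to 42 genes (9 to 19 higher, 11 to 23 lower), with 24 without DMSO replicate 5 and 25 without FGFRi replicate 4. The replicate numbers 3, 4 and 5 did not pair the samples (correlations of their deviations -0.03, -0.01 and 0.01), and a replicate block on the 8 libraries gave 21 genes (7 lower). No called gene changed direction. Of 257 list genes tested, 7 that were not called turned in sign with size factors, each at most 0.035 from 0 on the log2 scale, Nanos2 among them. Of the called genes, 29 of the 40 lost their call in at least 1 alternative. The calls kept were 27 of the 40 with no filter, 27 with DESeq2 and 16 with the block. The interaction with 72 h was called for 15 genes with no filter, 9 with glmTreat and 380 and 563 under those edgeR and limma tests, with 3 to 7 when 1 library was left out (3 without replicate 2 of either 72 h group). MEKi against FGFRi gave 42, 27, 585 and 435 genes under the same settings, 8 with thinned counts and 7 to 15 when 1 library was left out (7 without MEKi replicate 1, 8 without MEKi 6, 9 without FGFRi 4 or 5). FGFRi against DMSO at 72 h, which was added with its alternatives after seeing the data, gave 2 genes with glmTreat, 24 and 86 under those edgeR and limma tests, and 1 to 2 when 1 library was left out (2 without DMSO replicate 4). No share of counts crossed the threshold. The causes were not tested.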

Other observations

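XX germ cells cultured for 24 h in DMSO (n = 4, pool 1) give a further level for the genes called in XY germ cells. Pmaip1 was at 1.17 ± 0.47 CPM in XX germ cells, against 66.5 CPM in XY germ cells in DMSO and 7.86 with FGFRi. Pdk1 was at 31.1 ± 2.68 CPM in XX germ cells, next to 31.9 in XY germ cells with FGFRi and 147 in DMSO. Ret had 4.87 ± 1.82 CPM in XX germ cells, and Etv4 had 12.5 ± 2.30 CPM, where XY germ cells with FGFRi had 1.37 and 0 CPM. Sall3 was at 27.7 ± 5.26 CPM in XX germ cells, above both XY groups (1.98 and 11.97 CPM).

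Of the higher genes, the chromosome 6 neighbours were nearly absent from XX germ cells at 24 h, at 0.581 ± 0.47 CPM for Atp6v0a4, 0.178 ± 0.21 for Svopl and 0.0998 ± 0.20 for Tmem213. Klk1 was at 0.320 ± 0.23 CPM and Ambp at 0.124 ± 0.25. Irx3 was at 30.4 ± 5.02 CPM in XX germ cells, above 11.8 CPM in XY germ cells with FGFRi and 1.91 in DMSO, and Gchfr at 52.2 ± 11.6 CPM, between the XY groups (77.1 and 20.1 CPM). These genes were chosen for their change in XY germ cells, and the differences from XX germ cells carry no test.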
